A study of Mus musculus with 10 samples.

Results

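The insulin-like growth factor (IGF) group measured here comprised 9 genes, the ligands Igf1 and Igf2, the receptor Igf1r and the binding proteins Igfbp2 to Igfbp7. Every array probe whose annotated symbol is one of these 9 names was taken. The 12 probes found were among 13872 on the array, and the 9 genes among 11130 named ones. Values were present for 10 of the 12 probes, which covered 8 of the 9 genes, and all 10 probes entered the tests. The only Igfbp3 probe (probe 13679) and 1 of the pair of Igfbp4 probes (probe 13173) were blank on all 10 arrays, as were 41.9% of all probes, so Igfbp3 has no value here.

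Tissue was the aortic arch of mice on which connective tissue had been cleaned off. Double-null mice lacked apolipoprotein E and the signalling adaptor MyD88 (ApoE-/-,MyD88-/-), and the apoE-null controls lacked apolipoprotein E alone (ApoE-/-), so both genotypes carry the deletion that makes mice prone to atherosclerosis. A high fat diet of 8 weeks is stated for 8 of the 10 arrays, and the others hold mice of arrays that state it. The strain and age of the mice are not stated in the sources used. Each array set 1 double-null mouse against 1 apoE-null mouse in the other colour, and each of 5 mouse pairs was hybridised a second time with the colours exchanged. Both mice were female in pair 1 and male in pairs 2, 3 and 4, whereas in pair 5 the double-null mouse was male and its apoE-null partner female. On the 2 arrays of pair 1 the mouse numbers and genotypes are matched in opposite ways, and the genotype was followed. All values below are log2 ratios of double-null over apoE-null, a value of 1 being a doubling and 0 no difference. A pair value is the mean of its 2 arrays, and the spread is over pairs. A ratio on these arrays gives no level, so no gene can be called more abundant than another.

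The arrays held values for 4581 to 7057 probes each, and 4866 probes with at least 3 pair values were tested. Myd88, the gene deleted in the double-null mice, had a mean log2 ratio of -0.90 ± 0.22 (SD over 5 pairs, adjusted p = 0.0269 by limma). That is less than a halving, although the gene is deleted, and the cause was not tested. Over all tested probes the median log2 ratio was -0.04. The arrays measured whole tissue, in which fewer cells of a type and less RNA per cell cannot be told apart.

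IGF-1 and IGF-2 are small secreted proteins related to insulin that act through the IGF-1 receptor, a tyrosine kinase that signals through insulin receptor substrates, phosphoinositide 3-kinase and Akt to promote growth and survival. In blood and tissue most IGF is held by binding proteins, which lengthen its life, keep it from the receptor or, when cut by proteases, release it beside the cell. In the vessel wall the ligands act on smooth muscle cells, endothelial cells and macrophages, and smooth muscle cells themselves secrete ligand and binding proteins.

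No gene of the group passed the test for a difference between the genotypes. Of the 10 probes tested, 0 passed an adjusted p of 0.05 in limma and 0 had an unadjusted p under 0.05, where 0.781% of all probes passed and 488 of 4866 had an unadjusted p under 0.05. The share over all probes that passed in limma fell whichever pair was left out. It was 11 of 4561 probes without pair 1, 2 of 4744 without pair 2 and 5 of 4556 without pair 3. Without pair 4 it was 0 of 4589 and without pair 5 it was 25 of 4632. At an unadjusted p under 0.05 stood 325, 370, 576, 325 and 520 probes without pairs 1 to 5 in turn. Igfbp2 had the lowest mean (-0.65 and -0.52 on its 2 probes) and Igfbp6 the highest (0.28), and each of these was smaller than its own SD over pairs. The median over the 8 genes, with probes of a gene averaged, was 0.01, against -0.04 over all 4299 genes, of which 0.814% passed. The 95% intervals of the 10 probes spanned log2 ratios from -1.35 to 0.80, or folds from 0.393 to 1.74, so the 5 pairs do not exclude sizeable changes for several members. On the log2 scale the narrowest interval was that of Igfbp5, from -0.07 to 0.44, and the widest that of Igfbp2 probe 4465, from -1.35 to 0.05.

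Igf1, the ligand made in liver under growth hormone and also in many tissues, was measured by 2 probes. On probe 602 its pair values were 0.74, 0.46, -0.91, -0.02 and 0.20 for pairs 1 to 5. Pairs 1 and 3 thus lay far apart on opposite sides of 0, and the mean was 0.09 ± 0.63 (SD over 5 pairs, adjusted p = 0.881). On probe 10842 the values were 0.08, 0.19, -0.48, -0.34 and 0.03, with a mean of -0.10 ± 0.29 (adjusted p = 0.766). The probes shared their sign in 5 of 5 pairs, and both were lowest in pair 3, but they differed by up to 0.657 within a pair and their means had opposite signs. Partner arrays agreed less, since those of pair 2 read -0.20 and 1.12 on probe 602. Both arrays had the same sign in 2 of 5 pairs on probe 602 and in 3 of 5 on probe 10842.

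Igf2, the ligand of fetal growth that is read from the paternal copy, had pair values of -0.49, 0.15, 0.17, 0.03 and 0.43. It was below 0 in the female pair and above 0 in the other 4, with a mean of 0.06 ± 0.34 (adjusted p = 0.884). The arrays behind these values were less even than the means, since the partner arrays of pair 5 read -0.21 and 1.07, and only 2 of 5 pairs had the same sign on both arrays.

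Igf1r, the receptor kinase of both ligands, read -0.72, 0.09, 0.18, -0.16 and -0.54. It lay lowest in pairs 1 and 5, the pairs with a female apoE-null mouse, and near 0 in the male pairs. Its mean was -0.23 ± 0.39 (adjusted p = 0.619), and it was below 0 in 3 of 5 pairs and on 8 of 10 arrays. Both arrays had the same sign in 3 of 5 pairs.

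Igfbp2, a binding protein that also carries an integrin-binding motif, varied most. Its probe 9780 read -1.70, -0.60, 0.48, -0.17 and -0.59 in pairs 1 to 5, a range of 2.18 that was wider than that of 97.1% of the 3612 probes measured in every pair. The double-null mouse was lower in 4 of 5 pairs and higher in pair 3, and each pair had the same sign on both of its arrays. The second probe, 4465, read -1.66, 0.39, -0.53 and -0.80 in pairs 1, 3, 4 and 5, and pair 2 dropped out because 1 of its arrays was blank. The array left in pair 2 read 0.06 on this probe and -0.53 on probe 9780. In the 4 pairs they share, the probes differed by no more than 0.358 and never in sign. Probe 9780 had a mean of -0.52 ± 0.79 (SD over 5 pairs, adjusted p = 0.539) and probe 4465 one of -0.65 ± 0.84 (SD over 4 pairs, adjusted p = 0.511). Without pair 1 these means were -0.22 and -0.31, without pair 3 probe 4465 averaged -0.99, and over the male pairs alone probe 9780 averaged -0.10.

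Igfbp4, which mostly holds IGF away from its receptor until the protease PAPP-A cuts it, gave pair values of -0.05, 0.05, 0.06 and 0.05 in pairs 1, 3, 4 and 5. Its small SD of 0.05 around a mean of 0.03 (adjusted p = 0.937) did not come from close arrays. In pair 3 the partner arrays read -0.52 and 0.63, a gap of 1.15, and in 0 of 4 pairs did both arrays have the same sign. The median over all probes measured in every pair of the largest gap between partners was 0.66.

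Igfbp5, a binding protein that attaches to the extracellular matrix, read 0.26, 0.38, 0.17, 0.21 and -0.09. It was above 0 in the 4 pairs whose mice were of the same sex and below 0 in pair 5, with a mean of 0.18 ± 0.17 (adjusted p = 0.591). Its sign on single arrays was less steady, with the same sign on both arrays in 1 of 5 pairs.

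Igfbp6, the member that prefers IGF-2 to IGF-1, read 0.94, -0.05, 0.37, 0.81 and -0.66. It was high in pairs 1, 3 and 4 and low in pair 5, and 4 of 5 pairs had the same sign on both arrays. The mean was 0.28 ± 0.65 (adjusted p = 0.665), and it was 0.11 without pair 1 and 0.51 without pair 5.

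Igfbp7, a more distant relative that binds IGF weakly and is secreted by vascular cells, read -0.54, -0.78, 0.53, -0.17 and -0.30. As with Igfbp2, pair 3 was the pair above 0 and the other 4 were below, and the mean was -0.25 ± 0.50 (adjusted p = 0.644). It was -0.12 without pair 2 and -0.45 without pair 3. An exact sign-flip permutation test of each probe, two-sided, cannot go below 0.0625 with 5 pairs or 0.125 with 4, and its smallest p among the 10 probes was 0.125, for Igfbp5.

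**Figure D1:**
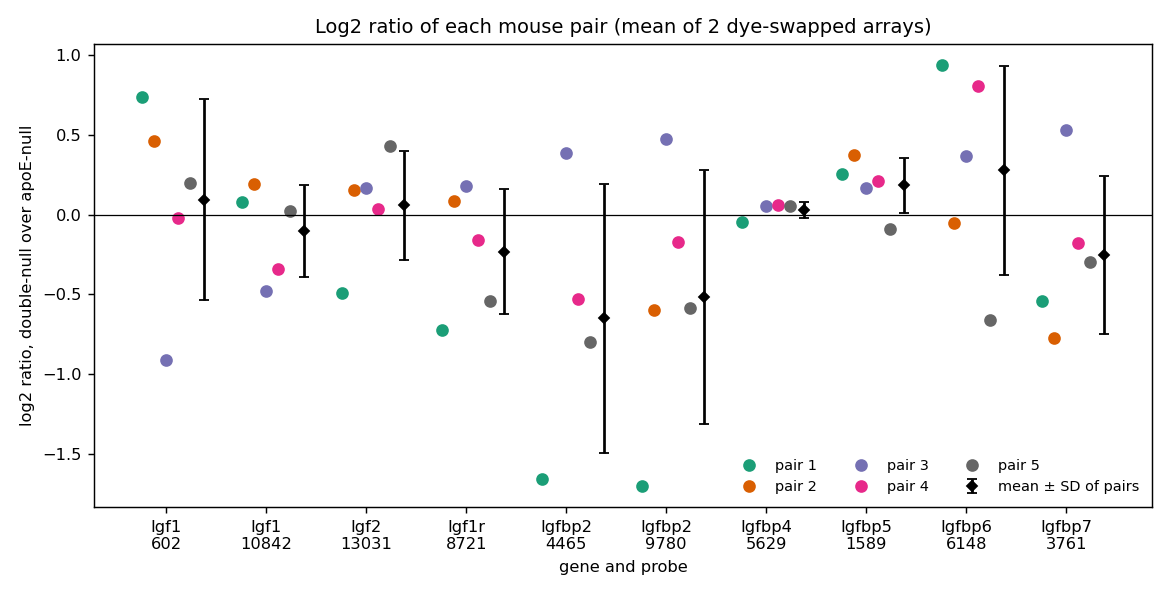
Log2 ratio (vertical axis, double-null over apoE-null) of each IGF group probe in each mouse pair, with the mean and SD over pairs. Igfbp2 falls lowest in pair 1, at -1.70 and -1.66, and is above 0 in pair 3 alone, while Igfbp6 is highest in pair 1 and lowest in pair 5.

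Several members differed between the mouse pairs by more than partner arrays differed from each other. The 10 arrays were fitted in limma with mouse pair and colour orientation as terms, a test chosen after the values had been seen, and the pair effect was judged against the disagreement of partner arrays. Of the 8 IGF group probes with values on every array, 5 differed between pairs at an adjusted p under 0.05, where 29.5% of the 3612 probes fitted did. These were Igfbp2 probe 9780 (adjusted p = 0.000359), Igfbp6 (adjusted p = 0.0016), Igfbp7 (adjusted p = 0.0077), Igf1 probe 602 (adjusted p = 0.022) and Igf1r (adjusted p = 0.0418). The second Igf1 probe (adjusted p = 0.206), Igf2 (adjusted p = 0.205) and Igfbp5 (adjusted p = 0.535) did not pass. Partner arrays were taken to share their RNA, which the mouse numbers of pair 1 do not settle. On that reading this spread is that of hybridisation and not of animals.

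The count rested on single pairs. Without pair 1 it was 3 of 8 probes (13.2% of all) and without pair 3 it was 2 of 8 (29.8% of all). Igfbp2 probe 9780 and Igfbp6 passed whichever pair was left out.

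Some members read differently in the 2 colour orientations. The 5 arrays with the double-null RNA in channel 1 and the 5 with it in channel 2 gave Igfbp5 means of -0.04 and 0.41 and Igf2 means of -0.12 and 0.24. For Igfbp4 the means were -0.16 and 0.22 over the 4 pairs with a value on both arrays. All 3 read higher with the double-null RNA in channel 2, but a colour effect passed for 0 of the 10 probes in limma, with 4.75% of all probes passing. Igfbp5 had the smallest adjusted p, at 0.131. Igfbp7 leaned the other way, with means of -0.10 and -0.40, and so did Igfbp2. The Igfbp2 means were -0.46 and -0.57 on probe 9780, and -0.50 and -0.80 on probe 4465 over 4 pairs. Igfbp2 and Igfbp7 stayed below 0 in both orientations. Igfbp6 hardly differed, at 0.28 and 0.27, and its largest gap between partner arrays was 0.391.

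**Figure D2:**
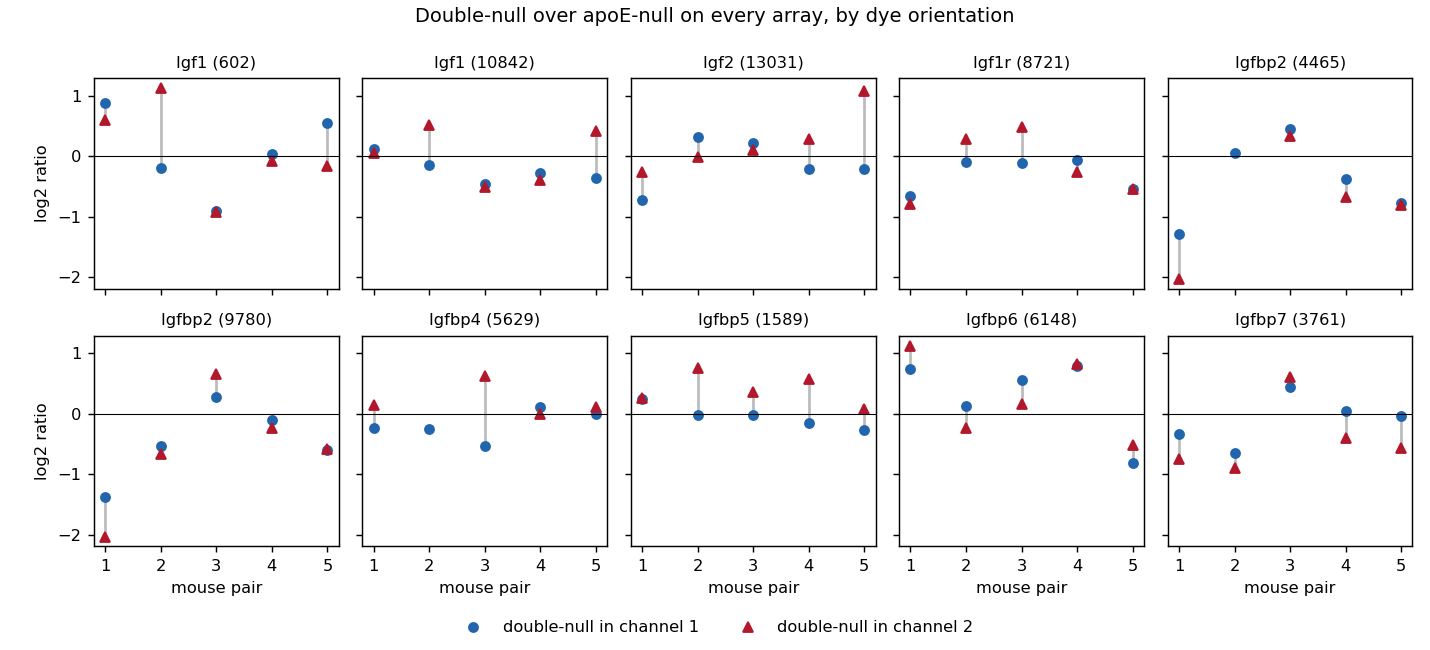
Log2 ratio (vertical axis, double-null over apoE-null) of each IGF group probe on every array, by mouse pair (horizontal axis), with a circle where the double-null RNA was in channel 1, a triangle where it was in channel 2 and a grey line joining partner arrays. The lines are short beside the range over pairs for Igfbp2 and Igfbp6, and for Igfbp4 the circles and triangles lie on opposite sides of 0 in the 4 pairs with both arrays.

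The sexes of the mice differed between pairs. In pair 1, the female pair, Igfbp2 probe 9780 read -1.70, and in the male pairs 2, 3 and 4 it averaged -0.10. The difference of -1.61 had an adjusted p of 0.107 in a limma fit. This comparison was chosen after the low value of pair 1 had been seen, all of its spread is that of pairs 2 to 4, and the lone female pair is assumed to vary as they do. The same difference was -0.76 for Igf1r, -0.61 for Igf2, 0.90 for Igf1 probe 602 and 0.57 for Igfbp6. For Igf1 probe 10842 it was 0.29, for Igfbp7 -0.40 and for Igfbp5 0.004. None of the 8 probes in the fit passed, where 0.265% of all 3775 probes did. Sex and the animals of pair 1 cannot be told apart with 1 female pair.

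Markers of the cell types of the arch are given beside the IGF group, pair by pair. The median log2 ratio of the adipocyte markers was 1.80, -0.10, -0.46, 1.09 and -0.43 in pairs 1 to 5, and that of the adipocyte hormone Adipoq was 2.40, 0.36, 0.00, 1.18 and -0.69. Igfbp6 was highest in pairs 1 and 4, as was the adipocyte median, although single markers ranged from -0.39 to 2.40 in pair 1 and from 0.06 to 1.61 in pair 4. In pair 3, where that median was lowest, Igfbp6 read 0.37, and in pair 5, where Igfbp6 was lowest, the median was nearly as low as in pair 3. The median of the smooth muscle markers was -0.50, -0.29, 0.31, 0.02 and -0.46, and that of smooth muscle actin, Acta2, was -0.69, -0.20, 0.69, 0.12 and -0.46. Igfbp2 and Igfbp7 were, like Acta2, highest in pair 3, and Igfbp2 and Acta2 were both lowest in pair 1. The smooth muscle markers did not all follow Acta2, with single markers from -0.69 to 0.70 in pair 1 and from 0.13 to 0.69 in pair 3. The fibroblast median was also highest in pair 3, at 0.09, but nearly as high in pair 4, at 0.06. Single fibroblast markers ranged from -0.35 to 0.44 in pair 3. What part these cell types had in the IGF group values was not tested.

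**Figure D3:**
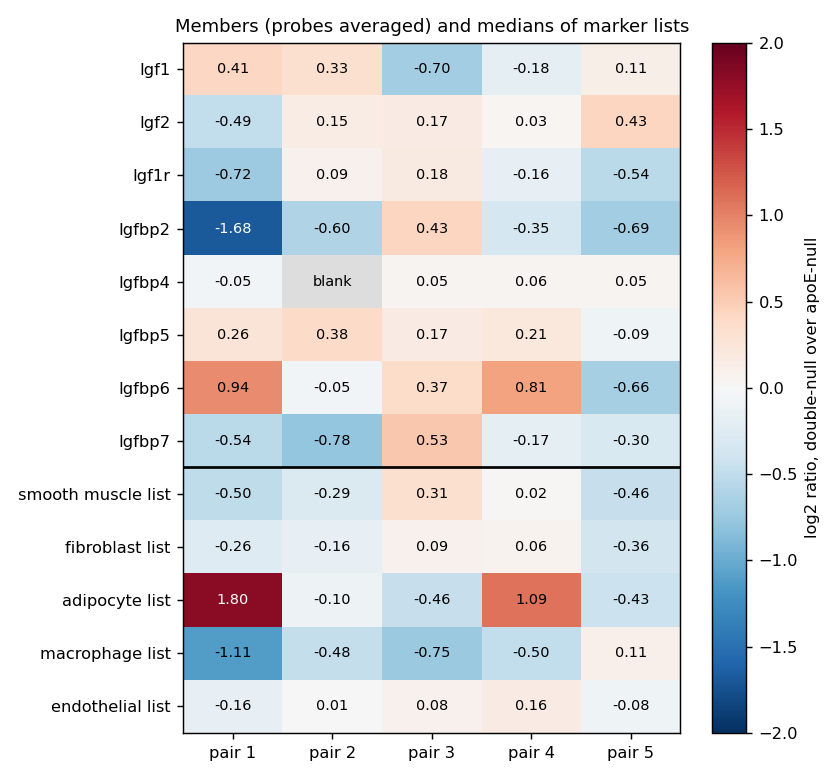
Log2 ratio (colour scale and printed value, double-null over apoE-null) in each mouse pair (columns) of the 8 measured IGF group genes, with probes of a gene averaged, above the medians of 5 marker lists (rows). Igfbp6 and the adipocyte median are both high in pairs 1 and 4. Igfbp2, Igfbp7 and the smooth muscle and fibroblast medians are each highest in pair 3, although the fibroblast median is nearly as high in pair 4.

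No marker gene of any list passed in the fit over genes. The 9 adipocyte markers tested had a median mean of 0.39 with 8 above 0, and the 8 smooth muscle markers one of -0.17 with 6 below 0. All 10 macrophage markers tested were below 0, with a median of -0.51, and 7 had an unadjusted p under 0.05 in limma. Over all 4299 genes 407 had an unadjusted p under 0.05, and 58.7% of all tested probes were below 0. The smallest adjusted p of the macrophage markers was 0.168, for Lyz2, lysozyme of myeloid cells, at -0.81 ± 0.54. Cd68, the lysosomal glycoprotein of macrophages, read -1.05, -0.73, -0.67, -0.15 and 0.59 in pairs 1 to 5, and the macrophage median read -1.11, -0.48, -0.75, -0.50 and 0.11. Pair 5, in which the macrophage median was highest, was the pair in which Igfbp6 was lowest, and the part of macrophages was not tested. The 12 fibroblast markers had a median of -0.15, led by Lum at -0.69 ± 0.44, and the 9 endothelial markers one of -0.01. Only 2 lymphocyte markers and 5 striated muscle markers were tested, and the striated muscle median ranged from -0.93 in pair 1 to 1.86 in pair 2.

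The genes whose 5 pair values lay closest to those of Igfbp2 and Igfbp6, by root mean square difference among 3191 genes, are given as a description. For Igfbp2, averaged over its probes, they were Palld (0.182), Actn1 (0.281) and Tnnt2 (0.300), where the median gene lay 0.880 away. Palld, which encodes the actin-associated protein palladin, read -1.38, -0.46, 0.25, -0.25 and -0.56. Actn1 encodes the actin cross-linker alpha-actinin 1, and Tnnt2 cardiac troponin T. For Igfbp6 the nearest were Apbb1ip (0.162), Slc4a4 (0.177), a bicarbonate cotransporter, and Dbt (0.235), with the median gene 0.751 away.

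The wider IGF pathway, a list of 48 receptors, proteases, adaptors and kinases around the 9 genes, had 39 genes on the array and 15 with enough values to test. None passed, where 0.814% of all genes did. Of the 15, 5 were above 0 and 10 below, where 58.7% of all tested probes were below 0. The median of the 15 was -0.11 in a range from -0.42 to 0.24. The lowest was Grb2, the adaptor that links receptor kinases to Ras, at -0.56, -1.12, -0.10, -0.41 and 0.07 in pairs 1 to 5. Its mean was -0.42 ± 0.46 (adjusted p = 0.507), and it was the single gene of the list with an unadjusted p under 0.05. Over all 4299 genes 407 had an unadjusted p under 0.05 in limma. Htra1, a secreted protease that cuts binding proteins, averaged -0.25 ± 0.32 (adjusted p = 0.586) and Foxo1, a transcription factor that Akt keeps out of the nucleus, 0.24 ± 0.32 (adjusted p = 0.59). Stc2, a secreted inhibitor of PAPP-A, averaged -0.25 ± 0.37 over 4 pairs (adjusted p = 0.627).

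**Figure D4:**
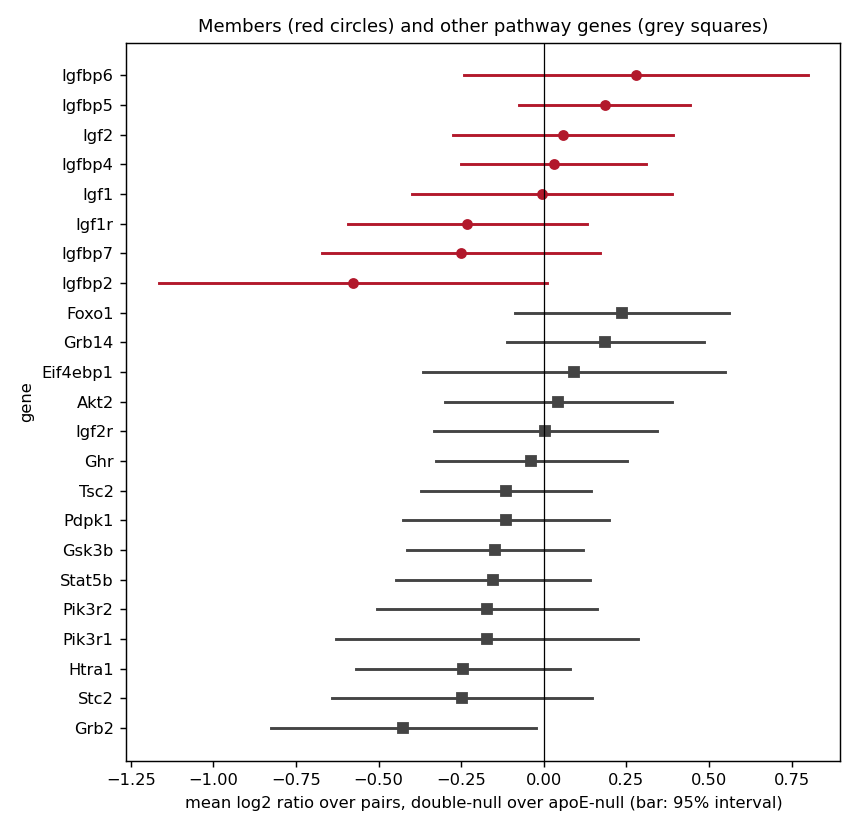
Mean log2 ratio over pairs (horizontal axis, double-null over apoE-null) of the 8 measured IGF group genes (red circles, probes averaged) and 15 other pathway genes (grey squares), with bars for the 95% interval from limma. The intervals of all 8 IGF group genes include 0, that of Igfbp2 reaching from -1.17 to 0.01, and the interval of Grb2 alone lies wholly below 0 before adjustment.

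The 250 bases before the start sites of 4 binding proteins are shown, chosen by their pair values. Igfbp2 and Igfbp7 were both highest in pair 3, and Igfbp6 was highest in pair 1. Igfbp5 had the smallest range of the IGF group probes measured in every pair. Sequences are from RefSeq on build GRCm38.p6, 5′ to 3′ on the gene's own strand, and capitals mark the GC box GGGCGG or its complement CCGCCC. Igfbp2 (the first of its 2 start sites, chr1:72824230-72824479, plus strand) and Igfbp5 (chr1:72874866-72875115, minus strand) are next to each other on chromosome 1 with 0 annotated genes between. Igfbp7 lies at chr5:77408046-77408295 on the minus strand and Igfbp6 at chr15:102143936-102144185 on the plus strand.
Igfbp2: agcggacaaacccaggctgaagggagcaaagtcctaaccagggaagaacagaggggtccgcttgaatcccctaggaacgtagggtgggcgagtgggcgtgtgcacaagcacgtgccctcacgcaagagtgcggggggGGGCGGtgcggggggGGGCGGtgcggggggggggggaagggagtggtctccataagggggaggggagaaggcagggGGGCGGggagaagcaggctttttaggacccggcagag
Igfbp7: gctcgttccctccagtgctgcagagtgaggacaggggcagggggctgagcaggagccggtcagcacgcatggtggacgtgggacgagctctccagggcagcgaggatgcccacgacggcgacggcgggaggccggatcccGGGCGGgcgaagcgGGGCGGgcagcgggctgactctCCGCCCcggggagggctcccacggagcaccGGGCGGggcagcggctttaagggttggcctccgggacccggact
Igfbp5: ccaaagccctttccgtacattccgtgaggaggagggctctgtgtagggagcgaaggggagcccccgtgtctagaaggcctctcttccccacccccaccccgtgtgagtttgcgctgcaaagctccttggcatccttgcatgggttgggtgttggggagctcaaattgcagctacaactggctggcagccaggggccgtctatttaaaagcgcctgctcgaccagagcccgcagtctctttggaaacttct
Igfbp6: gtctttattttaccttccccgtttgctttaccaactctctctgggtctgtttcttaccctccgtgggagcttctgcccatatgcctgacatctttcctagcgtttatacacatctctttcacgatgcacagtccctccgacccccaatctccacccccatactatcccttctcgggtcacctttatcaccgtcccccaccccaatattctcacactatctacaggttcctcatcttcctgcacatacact
The printed Igfbp2 window holds 3 GC boxes and that of Igfbp7 holds 4, whereas those of Igfbp5 and Igfbp6 and of the second Igfbp2 start site (56.4% GC, not printed) hold 0, and 32.7% of the 32851 RefSeq promoters of this length hold at least 1 on either strand. Of the other members' windows, not printed, that of Igf1r holds 2, and those of the Igf2 start sites hold 0, 0, 1 and 2. Those of Igf1, Igfbp3 and Igfbp4 hold 0. Whether GC boxes go with the pair values was not tested. The GC content of the printed windows was 67.2%, 74.0%, 58.8% and 49.6% in the order printed, against a median of 52.4% over all promoters. A TATAAA, found in 12.4% of all promoters on either strand, occurs in that of Igfbp6 on the opposite strand, at position -148 from the start site. The Igfbp4 window, not printed, holds a TATAAA at position -28. A match to the NF-kappaB motif, the factor that MyD88 signalling switches on, was found in 3.9% of all promoters on either strand and in 1 of the 13 of the IGF group, that of Igfbp5. These matches describe letters in this window alone.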

How the data were processed

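Per the labels, RNA of aortic arches was amplified with T7 polymerase, labelled chemically and hybridised to 2-colour slides, which were read on a GenePix 4000B scanner and analysed in GeneSpring. The authors deposited log2 ratios, apoE-null over double-null per the titles. Normalization, channel dyes and the reason for blank cells are not stated in the sources used, and scanner intensities were not analysed here. Signs were turned to double-null over apoE-null, and the 2 arrays of a pair were averaged. Pairs with a blank on either array were dropped for that probe, and probes with fewer than 3 pair values were left out. The number of arrays and the blanks limit the precision.

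In R 4.3.3, the mean over pairs of every probe was set against 0 in a two-sided test by limma 3.58.1 (functions lmFit and eBayes). P-values were adjusted by Benjamini and Hochberg's method over all 4866 probes (or 4299 genes with probes averaged) and the threshold was 0.05. Dye effects were tested alike on the difference between a pair's arrays divided by 2. The script was tested on simulated data. Array symbols were updated by Entrez identifier through RefSeq (GRCm38.p6): 12009 of 12143 single symbols matched, 134 kept the older name, and 49 probes had several symbols and 1680 none. Motif searches covered both strands.

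The members, though taken by symbol and not by a threshold on values, and the lists were chosen with earlier results of these data known. All members were named with every probe. Of the pathway list the called genes or else the 4 with the smallest p were named, of marker lists up to 2, and the 3 nearest genes of the 2 members with the largest means. Adipoq, Acta2, Cd68 and Myd88 were named in any case. Alternatives were leaving out each pair, single orientations, array-level fits, other filters, centring, scaling and the male pairs alone. Tests of differences between pairs and between sexes were added after the data had been seen.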

Additional observations from a re-analysis of the deposited data

Results flagged for a closer look

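The pair value of Igfbp4 probe 5629 in pair 1, at -0.048, stood apart from the other 3, which lay between 0.05 and 0.06. The gap is small on the scale of the arrays, whose partners differed by up to 1.15 for this probe. Among 39 groups of values looked at in this way, chance sets apart about 1 in 20.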

How the results depend on the processing

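Under each of 17 alternatives 0 members were called, with smallest adjusted p-values from limma between 0.211 and 0.839. The calls over all probes fell too, from 38 to between 0 and 25 when 1 pair was left out, so 0 members there is no sign of stability. The 0.211 belonged to Igfbp2 probe 4465 without pair 3. At an unadjusted p under 0.05 in limma stood 3 of 10 member probes without pair 3 and 1 of 10 without pair 5. Over all probes these counts were 576 of 4556 and 520 of 4632. On channel 2 arrays alone 2 of 10 member probes did, with 671 of 5083 over all probes. In the array fit with the mouse pair as a replicate block 2 of 10 did, with 591 of 5388 over all. The count of member probes that differed between pairs ranged from 2 to 5 when pairs were left out. It was 2 of 8 without pair 3, where 29.8% of all probes passed. Without pair 2 it was 5 of 10 (23.4% of all) and without pair 4 it was 5 of 8 (26.7% of all). Leaving out pairs gave log2 ratios of -0.069 to 0.34 for Igf1 probe 602 and -0.035 to 0.20 for Igf2, and dye effects of -0.14 to 0.11 for Igf1 probe 602, -0.11 to 0.017 for Igfbp2 probe 9780 and -0.054 to 0.042 for Igfbp6. With the male pairs alone Igf1 probe 602 was -0.16 and Igf1r 0.036, and with probes averaged Igf1 was -0.0060. With channel 1 arrays alone Igf2 was -0.12, Igfbp4 -0.18 and Igfbp5 -0.044, and with channel 2 arrays alone Igf1 probe 10842 was 0.016. Igfbp4 was -0.026 with 1 array accepted for a pair value and -0.010 with the replicate block. The cause of these turns was not tested. The log2 ratios of Igfbp2, Igfbp6 and Igfbp7 kept their sign under every alternative run but not their size: leaving out pairs gave -0.76 to -0.22 for Igfbp2 probe 9780, -0.99 to -0.31 for probe 4465, 0.11 to 0.51 for Igfbp6 and -0.45 to -0.12 for Igfbp7. Signal over background is unknown here.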
